A study of Homo sapiens with 36 samples.

Results

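The G1 cyclins and their kinases are described here as CCND1, CCND2 and CCND3 (the D cyclins), CCNE1 and CCNE2 (the E cyclins), CDK4 and CDK6 (partners of the D cyclins) and CDK2 (partner of the E cyclins). The members were all probe sets that the array annotation assigns to these 8 genes, which gave 14 of the 22215 probe sets tested. The annotation held 12643 distinct gene labels, a count that includes labels joining several genes, and none of the 14 names a further gene. RNA was measured on 36 Affymetrix oligonucleotide arrays of U2OS ER-HA-E2F1 cells, an osteosarcoma line that carries HA-tagged E2F1 fused to the estrogen receptor ligand-binding domain, so that 4-hydroxytamoxifen (OHT) brings E2F1 into the nucleus. All groups carry this construct, and the line is a single engineered model.

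The NFYB siRNA cells received an siRNA against NFYB from Ambion or from Dharmacon, and the control siRNA cells received a negative control siRNA from Dharmacon or from Sigma-Aldrich. Starvation of serum began 18 h after transfection and lasted 24 h, after which arrays were run at 0, 4 and 8 h of 80 nM OHT. Each of the 12 conditions had 3 biological replicates, so that each arm had 6 arrays per time when its 2 siRNAs were pooled. Every array at 4 h and 8 h had OHT, and a change against 0 h cannot be told apart from what OHT alone, or a longer time without serum, would give. Nothing in the labels says whether the replicates were separate cultures, and the p-values measure the spread between these samples.

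NFYB, the target of the siRNAs, had a signal of 66.6 ± 10.7, 113 ± 38.8 and 127 ± 46.8 at 0, 4 and 8 h in NFYB siRNA cells, against 187 ± 15.7, 438 ± 38.9 and 649 ± 59.5 in control siRNA cells (mean ± SD, n = 6 each). Of the osteoblast lineage markers SPARC, COL1A1 and SPP1 lay above the median probe set, while RUNX2, COL1A2, IBSP and ALPL lay below it. Of the markers of other cell types, EPCAM lay above the median, and none of the 5 measured leukocyte markers or the 5 measured endothelial markers did. Array medians ran from 100.5 to 119.7, and no arrays were identical.

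Progression through G1 depends on these complexes. Growth factors raise the D cyclins, which activate CDK4 and CDK6 to phosphorylate the retinoblastoma protein. E2F factors released from it raise the E cyclins, and these activate CDK2 at the entry into S phase. NFYB is a subunit of NF-Y, the trimer that binds CCAAT boxes in promoters.

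The genes lie at chr11:69641156-69654474 (CCND1), chr12:4273762-4305353 (CCND2), chr6:41934933-42050035 (CCND3), chr19:29811991-29824312 (CCNE1), chr12:55966830-55972789 (CDK2), chr12:57747727-57752310 (CDK4) and chr7:92604921-92836573 (CDK6) in GRCh38.p14. RefSeq promoter windows matched 4 of the 8 genes, CCND3, CCNE1, CDK4 and CDK6, with 7 transcription starts between them. The 250 bases before each start were searched on both strands. The E2F site words TTTCCCGC, TTTGGCGC, TTTCGCGC and TTTGCCGC, which 2.79% of all 35116 windows hold, were in none of the 7. TCCCGC, the last letters of the first of these words and held by 23.5% of windows, occurred 3 times before CCNE1 and 1 time before a CCND3 start. CCAAT, held by 32% of windows, occurred 1 time each before 2 of the 3 CCND3 starts. GGGCGG, the GC box, was held by 42.6% of windows and by 5 of the 7, with 2 and 5 matches before the middle and most upstream CCND3 starts, 3 before CDK4, 3 before a CDK6 start and 7 before CCNE1, where 1 match overlaps a TCCCGC match on the other strand. A match is a run of letters and not a measured binding site.

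The 150 bases before the start are shown for the windows with a match to TCCCGC or CCAAT, since CCNE1 and CCND3 rose with OHT. Capitals mark TCCCGC and CCAAT, or GCGGGA and ATTGG where the match is on the other strand. CCNE1 is read on the plus strand at chr19:29811841-29811990. CCND3 is read on the minus strand, from the middle of its 3 starts at chr6:41941809-41941958 and from the most downstream start at chr6:41939206-41939355.
CCNE1: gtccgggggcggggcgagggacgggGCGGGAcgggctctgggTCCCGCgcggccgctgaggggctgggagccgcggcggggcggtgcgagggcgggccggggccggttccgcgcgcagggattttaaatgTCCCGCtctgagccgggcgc
CCND3 middle start: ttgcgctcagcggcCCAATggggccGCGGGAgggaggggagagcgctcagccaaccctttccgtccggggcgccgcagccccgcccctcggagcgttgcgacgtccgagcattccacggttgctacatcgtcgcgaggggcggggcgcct
CCND3 downstream start: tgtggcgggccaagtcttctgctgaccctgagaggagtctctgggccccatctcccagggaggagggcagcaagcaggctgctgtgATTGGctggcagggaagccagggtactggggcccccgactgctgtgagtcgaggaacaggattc
In the CCNE1 sequence the matches begin 125, 108 and 20 bases before the start. In the CCND3 sequences CCAAT begins 136 bases before the middle start, and ATTGG begins 64 bases before the most downstream start.

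With OHT the E cyclins and CCND3 rose several-fold and CCND1, CCND2, CDK4 and CDK6 fell by less, while CDK2 did not pass the test in control siRNA cells. Signals were compared as log2 with limma, and a probe set was called at an adjusted p under 0.05 after Benjamini-Hochberg adjustment over all 22215. In control siRNA cells at 8 h against 0 h, 9 of the 14 member probe sets were called, 4 higher and 5 lower, from 7 of the 8 genes. Of all probe sets 49.9% were called in this comparison (20.3% higher and 29.6% lower), so the share called among the members is close to that on the whole array. In these bulk samples fewer cells that express a gene and less of its RNA per cell cannot be told apart. In NFYB siRNA cells 10 of 14 were called at 8 h, 4 higher and 6 lower, with 47.9% called over all probe sets (18.5% higher and 29.4% lower).

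**Figure D1:**
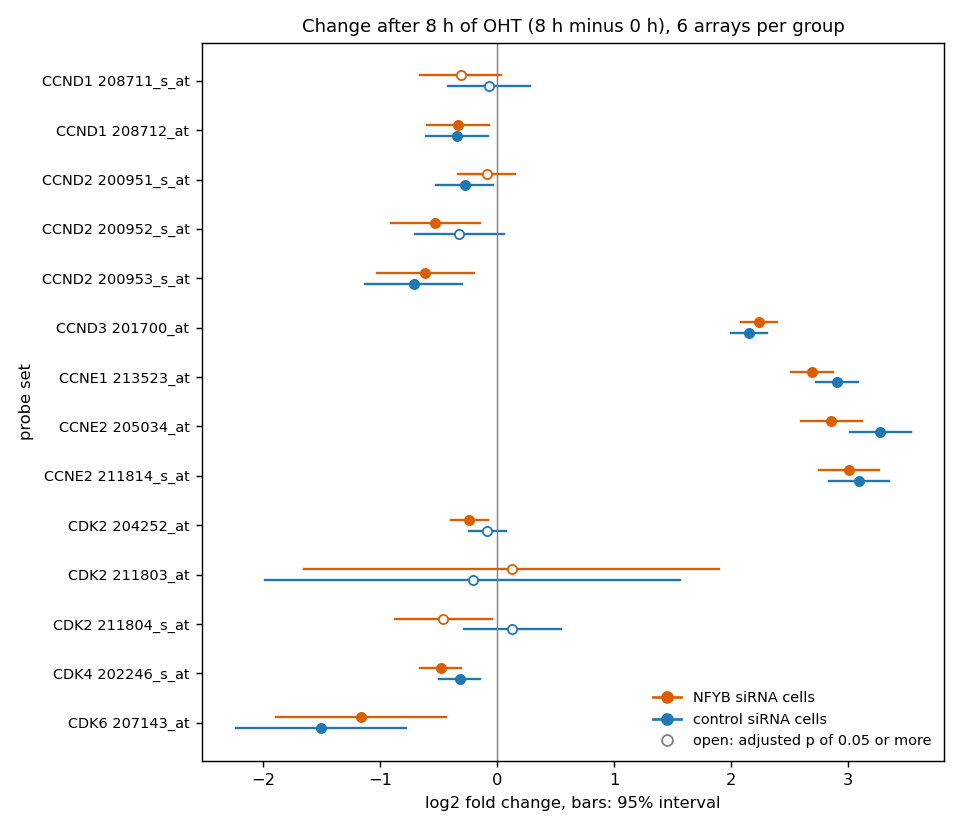
Log2 fold change at 8 h against 0 h of OHT (horizontal axis) for each of the 14 member probe sets (vertical axis), in NFYB siRNA cells (orange) above control siRNA cells (blue); bars are 95% intervals of limma, n = 6 arrays per group, and open points have an adjusted p of 0.05 or more. CCND3, CCNE1 and both CCNE2 probe sets lie between 2.15 and 3.27, apart from all other members.

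CCNE1 encodes cyclin E1. Its signal in NFYB siRNA cells was 1242 at the lowest, 1334 at the median and 1526 at the highest at 0 h, 6558, 7186 and 8216 at 4 h, and 7000, 9102 and 10416 at 8 h. In control siRNA cells the lowest, median and highest were 1021, 1169 and 1208 at 0 h, 6919, 7603 and 8518 at 4 h, and 7343, 8387 and 10036 at 8 h. Every array with OHT was far above every array without it, in both arms. By 8 h CCNE1 rose 6.46-fold in NFYB siRNA cells (log2 fold change 2.69, adjusted p = 7.07e-25) and 7.46-fold in control siRNA cells (2.90, SE 0.09, adjusted p = 7.24e-26). At 4 h the controls already gave 2.74 (adjusted p = 5.09e-25), and 8 h against 4 h gave 0.16 (adjusted p = 0.27).

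CCNE2, the other E cyclin, lies at chr8:94880224-94896693 and is measured by 2 probe sets that correlated at r = 0.979 over the 36 arrays, which share the OHT response. On the brighter (205034_at) the signal averaged 569 ± 75.1 at 0 h, 3886 ± 573 at 4 h and 4121 ± 588 at 8 h in NFYB siRNA cells, against 410 ± 69.5, 3674 ± 604 and 3966 ± 673 in control siRNA cells (mean ± SD, n = 6 each). The times with OHT lay far above 0 h in both arms. By 8 h the rise was 7.23-fold in NFYB siRNA cells (2.85, adjusted p = 8.55e-21) and 9.67-fold in control siRNA cells (3.27, SE 0.13, adjusted p = 1.14e-22). The dimmer probe set (211814_s_at) rose 8.02-fold in NFYB siRNA cells and 8.52-fold among the controls (adjusted p = 1.55e-21 and 6.12e-22). Its signal at 0 h was low, 52.7 ± 7.31 in NFYB siRNA cells and 53.8 ± 10.7 in control siRNA cells, below every array median. At 8 h against 4 h neither probe set passed the test among the controls (0.11 and 0.18, adjusted p = 0.641 and 0.376).

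CCND3 was the only D cyclin that rose. Its signal was 906 at the lowest, 1055 at the median and 1239 at the highest at 0 h in NFYB siRNA cells, 2876, 3310 and 3629 at 4 h, and 4684, 5172 and 5404 at 8 h. In control siRNA cells these were 887, 973 and 1194 at 0 h, 2867, 3001 and 3098 at 4 h, and 4117, 4543 and 4867 at 8 h. No array of a later time overlapped with an earlier time of its arm. By 8 h CCND3 rose 4.72-fold in NFYB siRNA cells (2.24, adjusted p = 1.62e-24) and 4.45-fold in control siRNA cells (2.15, SE 0.08, adjusted p = 4.72e-24). Unlike the E cyclins, it was also called at 8 h against 4 h in control siRNA cells (0.59, adjusted p = 3.11e-07), where 2 of 14 members were called and 17.2% of all probe sets. The difference of this step between CCND3 and the E cyclins was not tested.

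**Figure D2:**
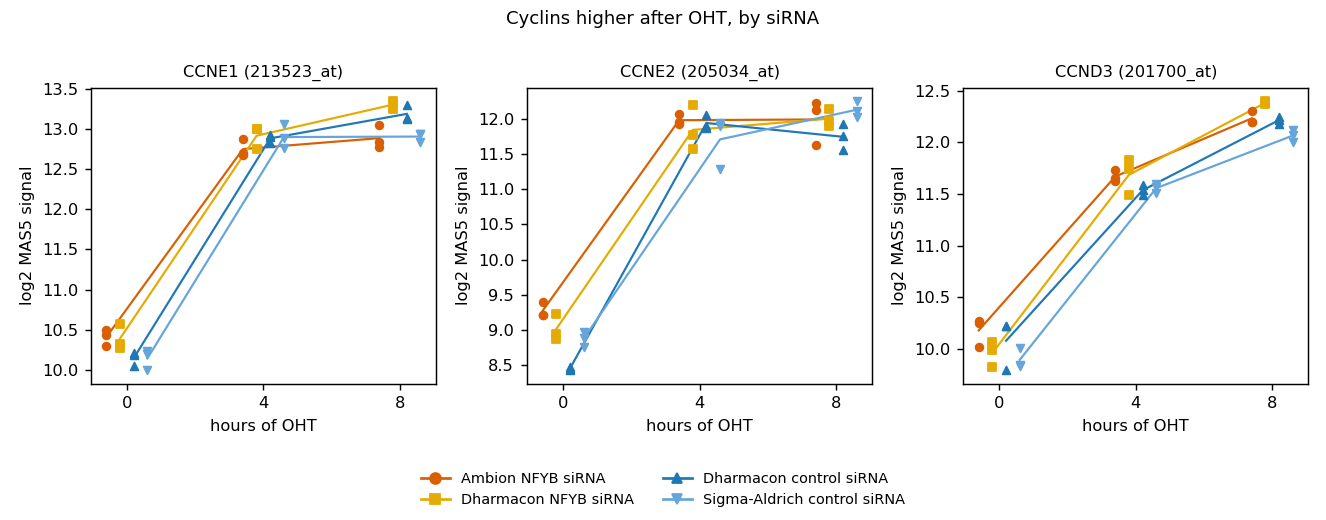
Log2 signal of CCNE1, CCNE2 and CCND3 (vertical axes) against hours of OHT (horizontal axis); points are single arrays, lines join the means of 3 arrays per siRNA, and points are shifted sideways by siRNA. All arrays at 4 h and 8 h lie above all arrays at 0 h, and CCND3 rises further between 4 h and 8 h.

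At 4 h in control siRNA cells these 4 probe sets of CCNE1, CCNE2 and CCND3 were the only members called in the pooled fit (16.1% of all probe sets were called higher and 39.3% in either direction). In the fit of 12 groups CCND2 200953_s_at and CCND1 208712_at were called as well. CCND2 had a mean log2 signal of 12.45 at 0 h and 12.23 at 4 h with the Dharmacon control, and 11.68 and 11.36 with the Sigma-Aldrich control. CCND1 had 10.70 and 10.33 with the Dharmacon control, and 10.01 at both times with the Sigma-Aldrich control. The genes whose log2 signal over the 36 arrays was most like that of CCNE1, among 11853 other probe sets of the upper 60% by signal, were YY1, PHLPP1 and CHST2 (r = 0.992 for each). Those most like CCNE2 were ID4, GNAI1 and BTG3 (r = 0.987, 0.987 and 0.986), and those most like CCND3 were RBP4, SIRPA and CDKN1C (r = 0.990, 0.988 and 0.988). These correlations are descriptions over arrays that share the times of OHT.

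CCND2 encodes the D cyclin with the brightest falling probe set (200953_s_at), and its level differed between the control siRNAs. In NFYB siRNA cells its signal with the Ambion siRNA was 2411, 2719 and 2737 at 8 h and 3853, 3829 and 4024 at 0 h. With the Dharmacon NFYB siRNA it was 2396, 2481 and 2654 at 8 h and 3857, 3923 and 4092 at 0 h. The Dharmacon control gave 4053, 4131 and 3761 at 8 h and 5278, 5754 and 5745 at 0 h, and the Sigma-Aldrich control gave 1598, 1710 and 1838 at 8 h and 3492, 3332 and 3057 at 0 h. With every siRNA the arrays at 8 h lay below those at 0 h, and at each time both NFYB siRNAs lay between the controls.

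Over the pooled arms CCND2 fell by 0.62 in NFYB siRNA cells (adjusted p = 0.0113) and by 0.72 in control siRNA cells (SE 0.20, adjusted p = 0.00321). The pooled fit uses 1 spread for all groups, which includes the gap between the control siRNAs. The SD of log2 signal at 0 and 8 h was 0.04 and 0.09 in NFYB siRNA cells, against 0.43 and 0.67 in control siRNA cells. Within single siRNAs, fitted as 12 groups, the changes by 8 h were -0.58 (Ambion NFYB), -0.66 (Dharmacon NFYB), -0.49 (Dharmacon control) and -0.94 (Sigma-Aldrich control), with adjusted p-values from 7.5e-13 to 6.44e-07 (43.7%, 44.7%, 45.7% and 44.9% of all probe sets were called, in that order of siRNAs). In the pooled fit the fall in NFYB siRNA cells was not called without replicate number 1 or 3 (adjusted p = 0.0596 and 0.0529) or with either NFYB siRNA alone (adjusted p = 0.189 and 0.125), and the fall in control siRNA cells was not called by the probe-by-probe test of the study's methods (adjusted p = 0.103 on linear and 0.108 on log2 signal). The other 2 CCND2 probe sets did not follow it in every comparison. 200952_s_at fell by 0.53 in NFYB siRNA cells (adjusted p = 0.0186, up to 0.108 without a replicate number) and changed by -0.32 in control siRNA cells (adjusted p = 0.161), while 200951_s_at changed by -0.09 in NFYB siRNA cells (adjusted p = 0.585) and fell by 0.28 among the controls (adjusted p = 0.0491). Over the 36 arrays 200953_s_at correlated with 200952_s_at at r = 0.703 and with 200951_s_at at r = -0.225. The call of 200951_s_at was lost in 25 of 39 fits that left out an array or a replicate number.

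CCND1 is the D cyclin most often tied to growth factor signals. On the brighter of its 2 probe sets (208712_at) the signal in NFYB siRNA cells was 772 at the lowest, 957 at the median and 1238 at the highest at 8 h, and 1132, 1222 and 1340 at 0 h. Among the controls it was 853, 1036 and 1278 at 8 h and 959, 1373 and 1695 at 0 h. The pooled groups overlapped in both arms. Within the Dharmacon control the signal was 1180 to 1278 at 8 h and 1613 to 1695 at 0 h, without overlap. The Sigma-Aldrich control (853 to 892 and 959 to 1132) and the Dharmacon NFYB siRNA (772 to 937 and 1132 to 1282) did not overlap either. The Ambion NFYB siRNA did (978 to 1238 and 1212 to 1340). The log2 fold change was -0.34 in NFYB siRNA cells and -0.35 among the controls, both called (adjusted p = 0.0301 and 0.0247). In 7 and 8 of 39 fits that left out arrays these calls were lost, with adjusted p up to 0.169 and 0.181. The call in NFYB siRNA cells was lost with either siRNA alone (adjusted p = 0.45 for Ambion and 0.0608 for Dharmacon). The call among the controls was lost with the Sigma-Aldrich control alone (adjusted p = 0.0779) and by the probe-by-probe test of the study's methods (adjusted p = 0.18 on linear and 0.186 on log2 signal). The other probe set (208711_s_at) was not called in either arm (-0.31 and -0.07, adjusted p = 0.137 and 0.773), and the 2 probe sets correlated at r = 0.226. Within single control siRNAs 208711_s_at fell by 0.56 with the Dharmacon control (adjusted p = 0.017) and changed by 0.41 with the Sigma-Aldrich control (adjusted p = 0.0818).

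CDK4, the main kinase partner of the D cyclins, had a signal of 2431 at the lowest, 2737 at the median and 3228 at the highest at 8 h in NFYB siRNA cells, against 3337, 3917 and 4545 at 0 h, and these groups did not overlap. Among the controls the signal was 2826, 3241 and 3543 at 8 h, against 3257, 4157 and 4519 at 0 h, where they did. CDK4 fell by 0.49 in NFYB siRNA cells (adjusted p = 1.07e-05) and by 0.32 in control siRNA cells (SE 0.09, adjusted p = 0.00185). Without replicate 1 the fall in control siRNA cells was not called (adjusted p = 0.0681), nor was it with the Dharmacon control alone (adjusted p = 0.126).

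CDK6, the alternative partner, was dim, and its probe set ranked at the 36.1 percentile of all probe sets by mean signal. At 8 h its signal was 8.0 at the lowest, 20.6 at the median and 50.5 at the highest in NFYB siRNA cells, against 40.5, 51.5 and 58.5 at 0 h. Among the controls it was 7.9, 21.6 and 52.2 at 8 h, against 39.4, 59.3 and 76.8 at 0 h. Arrays of 1 siRNA spread widely at 8 h, and the groups overlapped. The log2 fold change was -1.16 in NFYB siRNA cells and -1.51 in control siRNA cells (SE 0.36, adjusted p = 0.00656 and 0.000494). With an offset of 16 on the signal they were -0.72 and -0.96, both still called. The first was not called when replicate number 2 (adjusted p = 0.0823) or 3 (-0.63, adjusted p = 0.22) was left out, or with the Dharmacon NFYB siRNA alone (-0.86, adjusted p = 0.16). In control siRNA cells 8 h against 4 h gave -1.25 (adjusted p = 0.0113, or 0.0575 and 0.139 without replicate number 1 or 2, and -0.76 with the offset, still called) and 4 h against 0 h gave -0.26 (adjusted p = 0.63). The change after 4 h was not called with either control siRNA alone (adjusted p = 0.145 for Dharmacon and 0.114 for Sigma-Aldrich). The file holds no detection calls, so it is not known on which arrays CDK6 was above background.

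**Figure D3:**
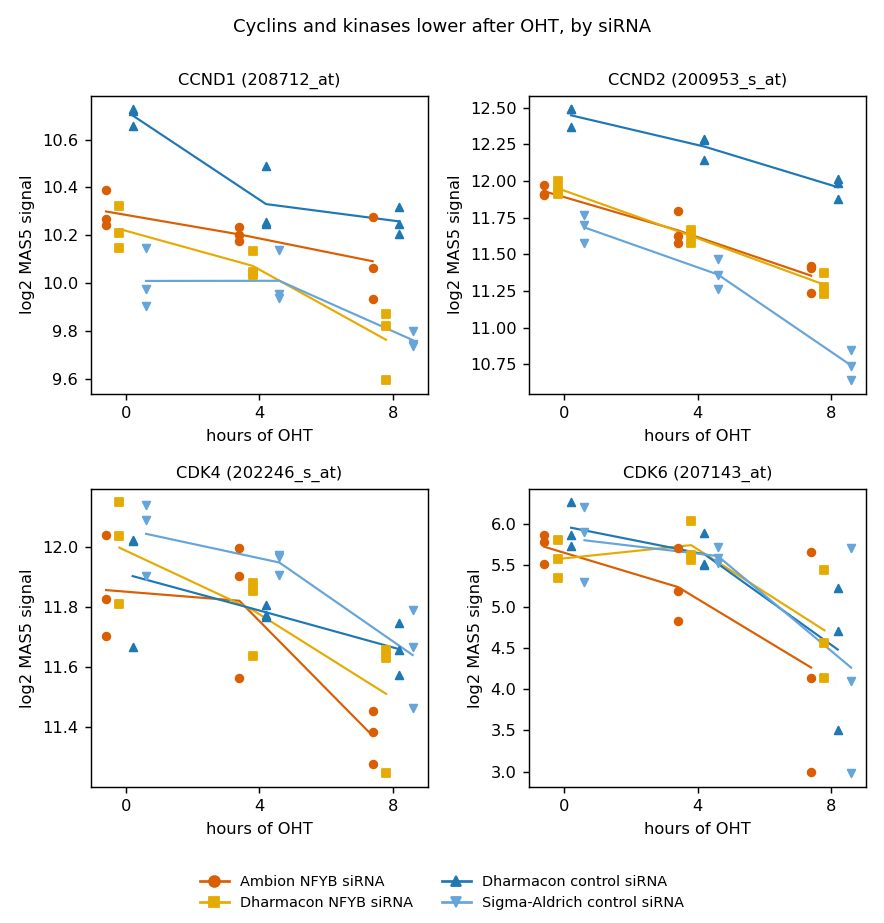
Log2 signal of CCND1, CCND2, CDK4 and CDK6 on the brightest probe set of each (vertical axes, each with its own range) against hours of OHT (horizontal axis); points are single arrays and lines join the means of 3 arrays per siRNA. For CCND2 the Dharmacon control lies highest and the Sigma-Aldrich control lowest at each time, with both NFYB siRNAs between them.

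CDK2 is the partner of the E cyclins. On its brightest probe set (204252_at) the mean signal was 799 ± 116 at 8 h and 939 ± 68.1 at 0 h in NFYB siRNA cells, and 950 ± 57.9 at 8 h and 1010 ± 90.0 at 0 h in control siRNA cells (mean ± SD, n = 6 each). It fell by 0.24 in NFYB siRNA cells (adjusted p = 0.00948, or 0.0991 and 0.0788 without replicate number 2 or 3, 0.362 with the Dharmacon NFYB siRNA alone, and 0.0734 and 0.0851 by the probe-by-probe test of the study's methods) and gave -0.09 in control siRNA cells (adjusted p = 0.388). Within single siRNAs the changes were -0.37 (Ambion NFYB), -0.11 (Dharmacon NFYB), -0.24 (Dharmacon control) and 0.06 (Sigma-Aldrich control), of which the Ambion NFYB and the Dharmacon control values were called (adjusted p = 0.000101 and 0.00903). On 211804_s_at 8 h against 0 h gave -0.46 in NFYB siRNA cells (adjusted p = 0.0597) and 0.13 in control siRNA cells (adjusted p = 0.658). The NFYB siRNA value was called with the upper 60% of probe sets, with no variance trend and with siRNA as a random block.

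Counting arrays that do not overlap, 7 of the 14 members separated 8 h from 0 h in NFYB siRNA cells and 4 in control siRNA cells, against 33.3% and 33.8% of all probe sets. The 4 in control siRNA cells were CCND3, CCNE1 and both CCNE2 probe sets, and NFYB siRNA cells added CDK4 and the CCND2 probe sets 200952_s_at and 200953_s_at. On 200953_s_at the overlap in control siRNA cells was between the Dharmacon and the Sigma-Aldrich control. Within each control siRNA all arrays at 8 h lay below those at 0 h on this probe set.

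Few of the members were called for NFYB knockdown in the pooled arms, and these were CCNE2 before OHT and CDK2 after 8 h of OHT. With siRNA as a random block, or with the Dharmacon NFYB siRNA alone, none was called at 0, 4 or 8 h. In the pooled arms at 0 h 1 of the 14 member probe sets was called, higher in NFYB siRNA cells (1.58% of all probe sets were called higher and 3.58% in either direction). At 4 h none was called by limma, none had an unadjusted p under 0.05, and the probe-by-probe test of the study's methods called none after Benjamini-Hochberg adjustment (2.93% of all were called by limma). At 8 h 2 were called, both lower (2.46% of all were called lower and 4.65% in either direction).

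**Figure D4:**
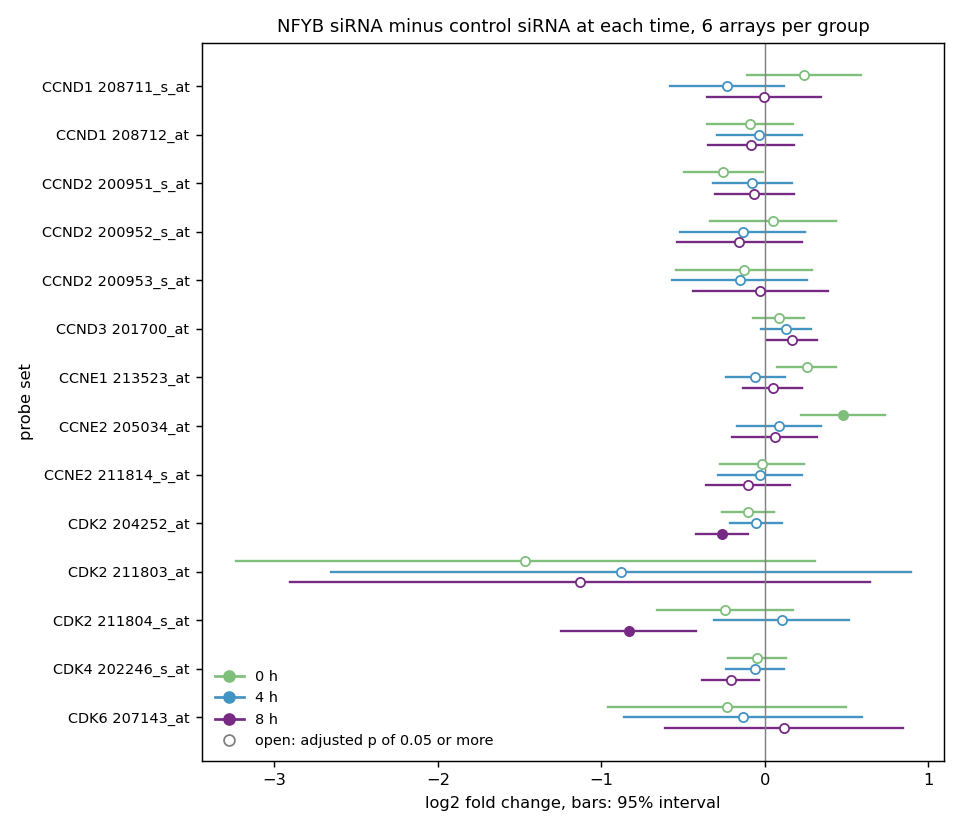
Log2 fold change of NFYB siRNA cells against control siRNA cells (horizontal axis) at 0 h, 4 h and 8 h for each of the 14 member probe sets (vertical axis); bars are 95% intervals of limma, n = 6 arrays per group, and open points have an adjusted p of 0.05 or more. Filled points stand at 0.48 for CCNE2 (205034_at, 0 h) and at -0.26 and -0.83 for CDK2 (204252_at and 211804_s_at, 8 h), and the dim CDK2 probe set 211803_at has the widest intervals.

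For CCNE2 at 0 h the brighter probe set gave signals of 671, 594 and 591 with the Ambion and 491, 470 and 597 with the Dharmacon NFYB siRNA, against 350, 344 and 356 with the Dharmacon and 433, 504 and 473 with the Sigma-Aldrich control. All 6 NFYB siRNA arrays were above the Dharmacon control, and the Dharmacon NFYB siRNA overlapped with the Sigma-Aldrich control. CCNE2 was 1.39-fold higher (0.48, SE 0.13, adjusted p = 0.0239). On the other CCNE2 probe set the difference was -0.02 (adjusted p = 0.979), at a dim signal (52.7 ± 7.31 in NFYB siRNA cells and 53.8 ± 10.7 in control siRNA cells). The call on 205034_at was lost in 8 of 39 fits that left out arrays, among them without replicate 1 of the Dharmacon control (adjusted p = 0.0639), without replicate 2 of it (0.0725) and without replicate 3 of it (0.0595). It was also lost without replicate 1 of the Ambion siRNA (0.0637), without replicate 3 of the Dharmacon NFYB siRNA (0.056) and without replicate numbers 1, 2 or 3 (0.191, 0.0579 and 0.273). Against the Sigma-Aldrich control alone it was 0.27 (adjusted p = 0.33), and with the Dharmacon NFYB siRNA alone 0.35 (adjusted p = 0.24). With siRNA as a random block the adjusted p was 0.0918, and by the probe-by-probe test of the study's methods it was 0.126 on linear and 0.13 on log2 signal.

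CCNE1 at 0 h did not pass the test in the pooled arms (0.26, SE 0.09, adjusted p = 0.11), although all 6 NFYB siRNA arrays, from 1242 to 1526, lay above all 6 control arrays, from 1021 to 1208. It was the only member whose arms did not overlap at 0 h, where 2.5% of all probe sets did not. Fitted as 12 groups, CCNE1 was higher with each NFYB siRNA against both controls at 0 h (0.26 with Ambion and 0.25 with Dharmacon, adjusted p = 0.0341 and 0.0321). In these comparisons 2 of the 14 members were called with each siRNA, and 7.06% and 13.1% of all probe sets. Quantile normalization of the pooled arms also called CCNE1. It was not called with either NFYB siRNA alone against the pooled controls. Against the Dharmacon or the Sigma-Aldrich control alone it was not called either (0.25 and 0.26, adjusted p = 0.175 and 0.206). The probe-by-probe test of the study's methods did not call it.

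CDK2 is measured by 3 probe sets. At 8 h the signal of 211804_s_at was 38.9, 39.4 and 43.6 with the Ambion and 43.5, 60.7 and 58.9 with the Dharmacon NFYB siRNA, against 87.3, 98.8 and 70.4 with the Dharmacon and 71.4, 96.2 and 79.6 with the Sigma-Aldrich control. All 6 NFYB siRNA arrays were below all 6 control arrays, the only member for which this held at 8 h, where the arms of 3.45% of all probe sets did not overlap. CDK2 was 1.78-fold lower on this probe set (-0.83, SE 0.20, adjusted p = 0.0116). The study listed this probe set as changed by NFYB knockdown on these same arrays, and its decrease here is not independent of that choice. It ranked at the 43.5 percentile by mean signal. The call was lost without replicate number 1, 2 or 3 (adjusted p = 0.165, 0.199 and 0.0684), with siRNA as a random block (adjusted p = 0.0505), with the Dharmacon NFYB siRNA alone (-0.63, adjusted p = 0.123) and against the Sigma-Aldrich control alone (-0.81, adjusted p = 0.0631).

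On 204252_at, the brightest CDK2 probe set, the signal at 8 h was 764, 668 and 664 with the Ambion and 916, 906 and 878 with the Dharmacon NFYB siRNA, against 862, 992 and 903 with the Dharmacon and 952, 968 and 1020 with the Sigma-Aldrich control. The Ambion arrays lay below all others and the Dharmacon NFYB arrays among the controls. The pooled difference was -0.26 (SE 0.08, adjusted p = 0.0464). Fitted as 12 groups it was -0.44 with the Ambion siRNA (adjusted p = 2.18e-05) and -0.08 with the Dharmacon siRNA (adjusted p = 0.528), and the siRNAs differed by -0.37 (adjusted p = 0.00138). The pooled call was lost in 9 of 13 alternatives, and in 23 of 39 fits that left out arrays, with adjusted p up to 0.384. The third CDK2 probe set, 211803_at, had a mean signal of 3.16, at the 4.82 percentile, and was called in no comparison of the arms or times.

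**Figure D5:**
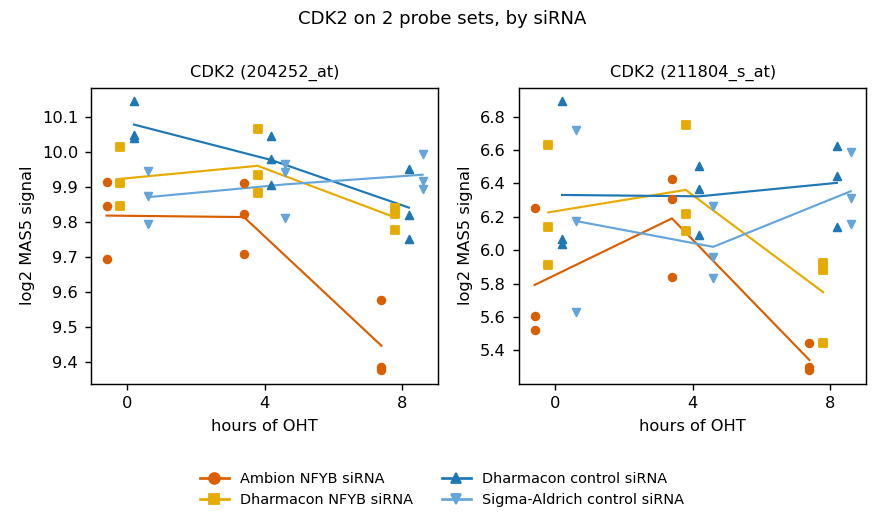
Log2 signal of CDK2 on 204252_at and 211804_s_at (vertical axes, each with its own range) against hours of OHT (horizontal axis); points are single arrays and lines join the means of 3 arrays per siRNA. At 8 h the Ambion arrays are lowest on 204252_at, while on 211804_s_at all 6 NFYB siRNA arrays lie below the control arrays.

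The other members were not called between the arms at 8 h. CDK4 differed by -0.21 (adjusted p = 0.186, 95% interval -0.39 to -0.03), CCND3 by 0.17 (adjusted p = 0.241, 0.01 to 0.32) and CCNE1 by 0.05 (adjusted p = 0.861, -0.13 to 0.23). For the E cyclins and CCND3, whose rise with OHT was at least 2.15, these intervals are narrow beside the response.

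Whether the response to 8 h of OHT itself differed by arm was tested as an interaction. By limma none of the 14 members was called, in the fit reported or in any of 11 alternatives (0.203% of all probe sets were called). Without adjustment 2 members had p under 0.05. They were CCNE2 (205034_at), with a rise of 2.85 in NFYB siRNA cells and 3.27 in control siRNA cells (difference -0.42, 95% interval -0.79 to -0.05, adjusted p = 0.605), and CDK2 (211804_s_at; difference -0.59, adjusted p = 0.703). These differences use the same arrays as the responses in each arm.

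The siRNAs of an arm differed from each other on some members. Between the control siRNAs, over all times, 4 of 14 members were called (25.6% of all probe sets). CCND2 200953_s_at was 0.95 higher with the Dharmacon than with the Sigma-Aldrich control (SE 0.04, adjusted p = 8.23e-18), and by time the difference was 0.76, 0.87 and 1.22 at 0, 4 and 8 h. The CCND2 response to 8 h of OHT also differed between the controls (0.45, adjusted p = 0.0189, 0.815% of all called). CCND2 200952_s_at and CCND1 208712_at were higher with the Dharmacon control too (0.53 and 0.50, adjusted p = 0.000708 and 7.11e-10), whereas CCND2 200951_s_at was lower (-0.37, adjusted p = 1.86e-05). Between the NFYB siRNAs 3 were called (17.1% of all): CCND1 208712_at was higher with Ambion than with Dharmacon (0.18, adjusted p = 0.00813), and CCNE1 and CDK2 204252_at were lower (-0.19 and -0.21, adjusted p = 0.00971 and 0.000656). The CCND1 call was lost without replicate number 2 or 3 (adjusted p = 0.196 and 0.131) and the CCNE1 call without number 3 (adjusted p = 0.143).

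The sign of the difference between NFYB siRNA and control on CCND2 200953_s_at depended on which control was used. Against the Dharmacon control alone it was lower in NFYB siRNA cells at 0, 4 and 8 h (-0.51, -0.59 and -0.63, adjusted p = 2.99e-06, 2.99e-07 and 9.11e-08, with 7.84%, 7.28% and 8.16% of all probe sets called). Against the Sigma-Aldrich control alone it was higher at each time (0.26, 0.28 and 0.58, adjusted p = 0.0168, 0.0114 and 1.78e-06, with 6%, 4.1% and 5.83% called). Against both it was -0.03 at 8 h (adjusted p = 0.972). CCND1 208712_at was likewise lower against the Dharmacon control at 0 h and 8 h (-0.44 and -0.33, adjusted p = 0.0033 and 0.0267) and not called against the Sigma-Aldrich control (0.25 and 0.17, adjusted p = 0.133 and 0.377).

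At 8 h no member was called with both NFYB siRNAs when each was set against both controls. With Ambion the called members were the 2 CDK2 probe sets above (2 of 14, with 7.4% of all called). With Dharmacon 3 of 14 were called (16% of all): CCND1 208712_at lower (-0.25, adjusted p = 0.0166), and CCND3 and CCNE1 higher (0.24 and 0.26, adjusted p = 0.0307 and 0.0219). These calls are from the fit of 12 groups, and with the Dharmacon NFYB siRNA alone against the pooled controls 0 of the 14 were called. For CCNE1 the signal at 8 h was 8446, 7317 and 7000 with the Ambion siRNA, against 10416, 10132 and 9757 with the Dharmacon siRNA, and these did not overlap (difference -0.42, adjusted p = 0.00256, 8.72% of all called). CCND1 differed between them by 0.33 (adjusted p = 0.0107), and CCND3 by -0.15 (adjusted p = 0.362).

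Ordered by mean level over arm and time, most neighbouring groups did not differ. For CCND3 the order was NFYB siRNA at 8 h, control at 8 h, NFYB siRNA at 4 h, control at 4 h, NFYB siRNA at 0 h and control at 0 h, and only the steps from control at 8 h to NFYB siRNA at 4 h and from control at 4 h to NFYB siRNA at 0 h differed (0.46 and 1.48, adjusted p = 1.4e-05 and 7.78e-19). For CCNE1 the groups at 4 h and 8 h came first and only the step to those at 0 h differed (2.43, adjusted p = 2.11e-23). On the CCND1, CCND2 and CDK4 probe sets no neighbouring pair differed.

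For the members that fell the highest correlations were lower. CCND2 was most like GALNT7, ACLY and STAT3 (r = 0.949, 0.921 and 0.910), and CCND1 was most like GALNT7, CADM1 and SSR1 (r = 0.877, 0.853 and 0.850). CDK4 was most like MYOF, TBC1D4 and TMED1 (r = 0.873, 0.864 and 0.860). CDK2 on its brightest probe set was most like COMMD10, ANXA7 and CYB5B (r = 0.773, 0.764 and 0.762), and CDK6 was most like RBM28, NECTIN2 and GTF3C1 (r = 0.771, 0.766 and 0.758).

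Genes that act with the G1 cyclins were examined by lists, on the brightest probe set of each gene. The shares and medians set beside the lists are over all 22215 probe sets, dim ones included. Of 6 CDK inhibitors measured, 4 rose by 8 h in control siRNA cells and none fell (20.3% of all probe sets were called higher and 29.6% lower). The list median was 1.63, against -0.10 over all probe sets. The inhibitors that rose are named next. They were CDKN1C (p57), CDKN1A (p21), CDKN1B (p27) and CDKN2D (p19), with changes of 3.43, 1.63, 1.75 and 1.63 (adjusted p = 1.02e-18, 3.73e-16, 2.87e-15 and 1.17e-13). These proteins bind and restrain cyclin-dependent kinases. None of the 6 was called between the arms at 8 h. CDKN1B and CDKN2D are on a list that the study chose on these arrays as induced and lower with knockdown, and here their differences at 8 h were -0.31 and -0.31 (adjusted p = 0.148 and 0.193). That list rests on cuts of the p-value and the ratio to control, with no adjustment over probe sets stated. The adjusted p given here is therefore not measured against the study's threshold.

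By 8 h of OHT among the controls 20.3% of all probe sets were called higher and 29.6% lower, with a median of -0.10, and between the arms at 8 h 4.65% were called, with a median of -0.03. Of 18 genes of G1 kinase activation and cyclin turnover, 10 rose and 5 fell in the controls (list median 0.27). CDC25A, the phosphatase that activates CDK2, rose by 2.18 and CCNH, a subunit of the CDK-activating kinase, by 0.97 (adjusted p = 1.36e-14 and 5.73e-15), while CKS1B, a CDK-binding subunit, fell by 0.78 (adjusted p = 1.53e-14). Between the arms at 8 h only RBX1, a subunit of cullin ubiquitin ligases, was called (0.25, adjusted p = 0.0258). WEE1, a kinase that inhibits CDKs, and FBXW7, which targets cyclin E for degradation, had differences of 0.29 and -0.25 (adjusted p = 0.0978 and 0.192).

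Of 12 mitogen-dependent inputs to the D cyclins, 3 rose and 5 fell (list median -0.29), where 20.3% and 29.6% of all probe sets were called higher and lower. The 3 were EGR1 and FOS, immediate-early factors, and NFKB1, a subunit of NF-kB (2.34, 1.93 and 1.26, adjusted p = 1.44e-24, 1.23e-17 and 2.3e-14). TCF7L2, a Wnt pathway factor, fell by 0.77 (adjusted p = 1.72e-07). None of the 12 was called between the arms at 8 h, TCF7L2 and CTNNB1 (beta-catenin) included (-0.13 and -0.12, adjusted p = 0.633 and 0.704). EGR1 is on the study's list of genes induced and lower with knockdown, but on a probe set other than the brightest one used here.

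Of 12 pocket protein, E2F and DP genes, 5 rose and 2 fell by 8 h among the controls (list median -0.09, with 20.3% and 29.6% of all probe sets called higher and lower), and none was called between the arms at 8 h. E2F8 and E2F2 rose by 1.74 and 1.87, TFDP1, a partner of the E2Fs, by 0.81 and RB1, the retinoblastoma protein, by 0.89 (adjusted p = 1.36e-14, 1.55e-09, 2.53e-12 and 7.06e-06). Between the arms E2F3 and RB1 differed by 0.16 and -0.29 (adjusted p = 0.28 and 0.349).

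Of 14 origin licensing and G1/S genes, 7 rose and 6 fell (list median 0.15, with 20.3% and 29.6% of all probe sets called higher and lower). RRM2, a subunit of ribonucleotide reductase, rose by 1.50 (adjusted p = 4.16e-18), and the licensing genes MCM5, MCM3 and ORC1 fell (-0.98, -0.77 and -1.88, adjusted p = 8.21e-15, 7.66e-14 and 4.26e-14). Between the arms at 8 h 3 of the 14 were called, all higher in NFYB siRNA cells (list median 0.09, 4.65% of all probe sets called), and they were MCM3, MCM5 and ORC1 (0.34, 0.27 and 0.48, adjusted p = 0.000322, 0.0172 and 0.0421).

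Of the 6 S phase and mitotic cyclins with CDK1, 2 rose and 2 fell by 8 h among the controls (list median 0.18), where 20.3% and 29.6% of all probe sets did. CCNF (cyclin F) rose by 0.76 (adjusted p = 5.4e-11), and CCNB1 and CCNB2, the mitotic B cyclins, fell (-0.56 and -0.51, adjusted p = 3.1e-08 and 7.2e-08). Between the arms CCNB1 and CCNB2 were lower in NFYB siRNA cells at 8 h (-0.46 and -0.44, adjusted p = 9.15e-05 and 6.9e-05). Both are on the study's knockdown list, which was chosen on these arrays.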

How the data were processed

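RNA of 36 samples was measured on Affymetrix arrays. The deposited values are linear MAS5 signal intensities made by the authors in Affymetrix Expression Console, with each array brought to a trimmed mean of 500 (2% trimmed). Of 22277 probe sets, 62 controls were left out, and detection calls were not used here.

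Signals were taken as log2 without an offset. The limma 3.58.1 package in R 4.3.3 fitted 6 groups of 6 arrays, the siRNAs of an arm together, by empirical Bayes with a variance trend, and a fit of 12 groups of 3 compared siRNAs. Tests were 2-sided. The fits were tested on simulated data with independent arrays and no difference between the siRNAs of an arm. That simulation does not cover the gaps between siRNAs seen here. Array number limits the precision.

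The members, lists and alternatives were chosen with earlier results of these data known. The motifs, the test of the 8 h response between siRNAs of an arm and the values against each control were chosen after seeing the data. All members are named. From each list the text names up to 3 genes of smallest adjusted p for OHT at 8 h in control siRNA cells and up to 3 for knockdown at 8 h, on the brightest probe set. Promoters and positions are from RefSeq, GRCh38.p14. Alternatives changed the offset (16), the normalization (quantile), the filter (upper 60%), the trend, the grouping and the siRNAs used, added siRNA or replicate number as blocks, used the methods' t-test, or left out arrays.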

Additional observations from a re-analysis of the deposited data

Results flagged for a closer look

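Among 84 groups of 6 arrays (14 probe sets, 6 groups each), 2 held an array far from the others by Dixon's test, which flags about 1 in 20 groups by chance. For CCND2 200951_s_at in control siRNA cells at 0 h, replicate 1 of the Sigma-Aldrich control had a signal of 1663, against 1122 to 1296 in the other 5 arrays. Without this array the fall of this probe set by 8 h was 0.20 and not called (adjusted p = 0.166), against 0.28 (adjusted p = 0.0491) with it. For CCNE2 205034_at in control siRNA cells at 4 h, replicate 2 of the Sigma-Aldrich control had a signal of 2490, against 3751 to 4232 in the others. The rise at 4 h was called with and without any single array.

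The response of CCND2 200953_s_at to 8 h of OHT differed between the control siRNAs, by a test of the difference itself. The change was -0.49 with the Dharmacon and -0.94 with the Sigma-Aldrich control (difference 0.45, adjusted p = 0.0189), where 0.815% of all probe sets were called. The test was added after seeing the data, and the cause was not tested.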

How the results depend on the processing

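No result called in the fit reported changed sign under any alternative. CCND2 200953_s_at, not called for knockdown against both controls together, was called lower against the Dharmacon and higher against the Sigma-Aldrich control alone. Of 1711 recomputed values of single called results, 1578 stayed called. The OHT calls of CCNE1, CCNE2 and CCND3 held in all of them. Counts of member probe sets called moved by over 1.5 times as follows. For knockdown at 0 h, where 1 was called, quantile normalization gave 2, 12 groups gave 3, siRNA as a random block (correlation 0.160) gave 0, the Dharmacon NFYB siRNA alone gave 0, the Dharmacon control alone gave 3, and the methods' t-test gave 0 on linear and 0 on log2 signal. For knockdown at 4 h, where 0 were called, 12 groups gave 1, the Dharmacon control alone 2 and the Sigma-Aldrich control alone 1, each on CCND2. For knockdown at 8 h, where 2 were called, siRNA as a random block and the Dharmacon NFYB siRNA alone gave 0, and quantile normalization, no trend and the methods' t-test (linear or log2) gave 1, CDK2 211804_s_at. The Sigma-Aldrich control alone also gave 1, but this was CCND2 200953_s_at, higher, and both CDK2 calls were lost (adjusted p = 0.0588 and 0.0631). For OHT at 8 h in control siRNA cells, where 9 were called, the methods' t-test gave 6, which is 1.5 times and not over it. For 8 h against 4 h, where 2 were called, the upper 60% of probe sets gave 1 and 12 groups gave 4. For OHT at 8 h in NFYB siRNA cells, where 10 were called, the Dharmacon NFYB siRNA alone gave 6.

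Leaving out an array or replicate number gave 0 to 1 calls for knockdown at 0 h, 0 at 4 h and 0 to 2 at 8 h. For OHT it gave 4 at 4 h, 6 to 9 at 8 h, 1 to 3 for 8 h against 4 h and 5 to 11 at 8 h in NFYB siRNA cells. It gave 0 for the difference of responses, 1 to 4 between NFYB siRNAs and 4 to 5 between control siRNAs. With the replicate number as a block 1 member was called for knockdown at 8 h, CDK2 211804_s_at. Whether the replicate numbers pair the samples was not settled. Same-numbered arrays of different conditions correlated at -0.187 to 0.288, with a median of 0.0089. Arrays of other numbers and conditions correlated at -0.384 to 0.332, with a median of -0.0031, and 16 of 36 arrays correlated best with their own number. These values do not show clear pairing and cannot exclude it. The study's threshold is set on the unadjusted p and the ratio to control. At this threshold 225 of 22215 probe sets passed the methods' t-test for knockdown at 8 h on linear signal. Of the 14 members 1 passed, CDK2 211804_s_at. After Benjamini-Hochberg adjustment, 1032 of all probe sets were called for knockdown at 8 h by limma and 455 by the t-test of the methods on linear signal. CDK6 and 2 CDK2 probe sets are dim, as is CCNE2 211814_s_at at 0 h, and no detection calls bound them.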
